A study of Mus musculus with 192 samples.

Results

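The hemizygous (HEM) pools of the first time point (T1) were compared with the nontransgenic (NON) pools of the same age, in the left and the right cerebral cortex separately. The comparison took the pools by their labels, with all collection times together. It included HEM pools 1/2, 3/4 and 5/6, which carry no collection time in their labels. This gave 4 HEM pools of 8 mice and 5 NON pools of 9 mice in the left cortex, and 5 HEM pools of 9 mice and 5 NON pools of 9 mice in the right cortex, 19 of the 192 pools of the series. A pool held equal amounts of RNA from 2 male mice or was the RNA of 1 mouse (NON pool 6, and HEM pool 8, which was analysed here in the right cortex and not in the left). Pools of the same number in both cortices came from the same mice.

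L44 mice carry a triprolyl-human amylin transgene on the FVB/n background, driven by the rat insulin 2 promoter, a promoter that is active in the insulin-producing cells of the pancreas. The probes do not tell whether the transgene was also active in the brain. HEM mice carry the transgene on 1 chromosome of a pair and homozygous (HOM) mice on both, while NON mice have none but were bred from HEM parents. All mice were 99 to 101 days old, before diabetes. In the NON group, pools 2/7 and 8/9 were collected in the morning (AM) and pools 1/3, 4/5 and 6 in the afternoon (PM). The HEM pools with a collection time, 8 and 9/10, were both PM. The labels give pools of tissue from separate mice, but a pool is no longer a single animal, so that the spread between pools understates the spread between mice.

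Amylin is a peptide that pancreatic beta cells release together with insulin, and it acts on the brain to end meals. Its receptor is the calcitonin receptor (Calcr) paired with a receptor activity modifying protein (Ramp1, Ramp2 or Ramp3). The insulin signal runs through the insulin receptor and its substrates to PI3K and Akt, and the leptin signal through the leptin receptor to Jak2 and Stat3. Socs3 and the phosphatase Ptp1b restrain both. The 43 target genes of the probe panel cover these signals, the peptides of appetite and histamine.

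On the nCounter platform, mRNAs are counted by barcoded probes without amplification. The total over the 43 target genes was 276359 to 424114 counts in the 9 left cortex pools and 298892 to 508979 counts in the 10 right cortex pools. Values below are normalised counts, the counts divided by the geometric mean of the 3 reference genes of the pool times the mean of those geometric means over all pools of the cortex. Background was set for each pool from its 8 negative control probes, as their mean plus 2 SD, 10.6 to 34.3 counts in the left cortex and 23.4 to 37.9 counts in the right cortex. Genes that did not exceed this were not distinguishable from background. The panel has no gene that marks cortical neurons or glia, so the labelled tissue could be checked only against genes of other tissue. Melanin-concentrating hormone (Mch), a peptide of the lateral hypothalamus, had a median of 18.0 counts per 1000 reference counts in the T1 left cortex and 18.3 in the right cortex, against 4245 in the T1 midbrain pools. In the same order, the hypothalamic wake peptide Hcrt had 4.93, 5.33 and 147.4. Across the 5 hypothalamic markers on the panel, the summed level was 223.6 to 286.0 normalised counts in the left cortex HEM pools and 200.9 to 291.5 in the NON pools. Right cortex sums were 306.5 to 379.4 in HEM and 274.8 to 363.5 in NON. Mch was the most abundant of the 5 in all these pools except right cortex NON pool 8/9, where Pomc was, and none of the 5 was at 0 counts.

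Since each value is a ratio to the reference genes, their level was compared first. The log2 of the geometric mean of the raw reference counts was higher in HEM by 0.095 in the left cortex (two-sided exact permutation test, p = 0.62) and by 0.20 in the right cortex (exact p = 0.11). Neither passed, and the smallest p that these group sizes allow is 0.0079. The reference genes were also set against the target genes with at least 500 counts in every T1 pool, 28 left cortex and 29 right cortex genes. The right cortex NON PM pools stood high on this ratio, at 0.074 in pool 1/3, 0.17 in 4/5 and 0.10 in 6 on the log2 scale relative to the mean of the cortex. The NON AM pools were at -0.037 in 2/7 and -0.049 in 8/9. The HOM pools also stood apart by collection time, with PM pools at 0.11 in 1/5 and 0.12 in 8/9. The HOM AM pools were at -0.14 in 3/4 and -0.056 in 6/7. The HEM pools were at -0.13 in 1/2, -0.13 in 3/4, -0.0056 in 5/6, 0.015 in 8 and -0.046 in 9/10, all below the NON PM pools. NON pool 4/5 was also highest in the left cortex, at 0.14. The part of this ratio in the gene values below was not tested.

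**Figure D1:**
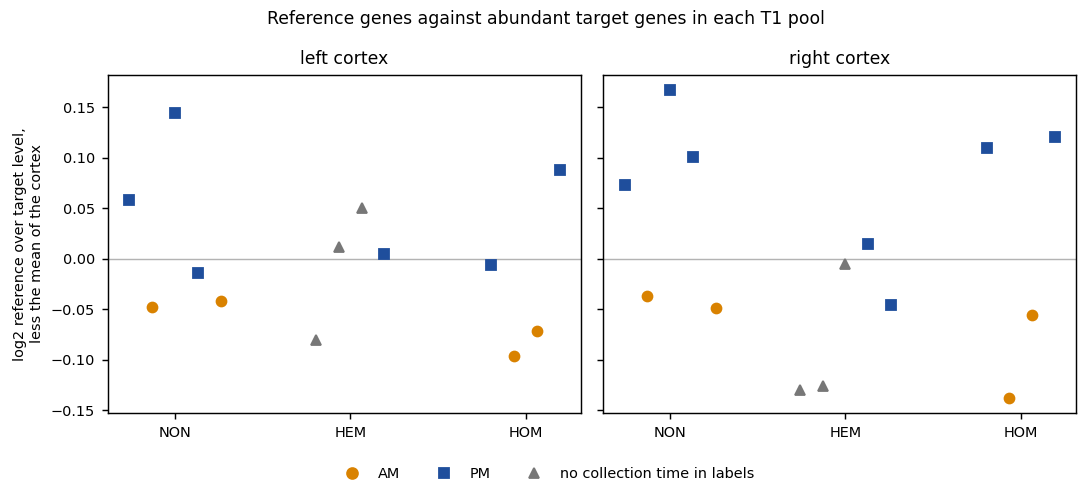
Reference genes against abundant target genes in each T1 pool, as the log2 ratio of their mean levels less the mean of the cortex, with 1 point per pool and the shape and colour giving the collection time. In the right cortex the 3 NON PM pools lie at 0.074 to 0.17, the HOM PM pools at 0.11 and 0.12, and the 5 HEM pools at -0.13 to 0.015.

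In the right cortex, Ramp2, Calcr and the Calcr-1a isoform were higher in HEM than in NON, and no gene was lower. These 3 of 43 genes (6.98% of those tested) passed, which here means a Benjamini-Hochberg adjusted p under 0.05 in the quasi-likelihood test of edgeR, the source of all adjusted p-values below. In the left cortex no gene passed (0% of 43), and 6 genes had an unadjusted p under 0.05 (14% of those tested), against 13 in the right cortex (30.2%). DESeq2 with the reference genes and edgeR's likelihood-ratio test also called 0 in the left cortex, and DESeq2 with its own size factors called 3. Without NON pool 4/5, no gene passed in the right cortex, and Ramp2 alone passed without HEM pool 3/4 or 5/6 or NON pool 2/7, 6 or 8/9. Without HEM pool 9/10, 4 genes passed in the left cortex (Akt1, Calcr, Calcr-1b and Mc4r), and Calcr and Calcr-1b passed there without HEM pool 3/4 or NON pool 6. In each cortex 29 of 43 log2 fold-changes were above 0, with a median of 0.12 for the right and 0.050 for the left cortex. These counts moved with the scaling. With scaling by edgeR's TMM, 22 genes were above 0 in the right cortex (median 0.011) and 20 in the left (median -0.026). With scaling to the positive control probes, 41 and 42 genes were above 0 in the same order, with medians of 0.31 and 0.27. Relative to the median of the right cortex, the log2 fold-changes of the genes that passed were 0.29 for Ramp2, 1.74 for Calcr and 1.03 for Calcr-1a. With the limits of the study, Calcr and Calcr-1a also had an absolute log2 fold-change above 1 (4.65% of those tested), and Ramp2 was under 0.58. Calcr-1a exceeded background in a single one of these pools. In an alternative limited to the 39 genes above background in at least as many pools as not, only Calcr and Ramp2 passed. HEM and NON pools did not overlap for 3 genes in the left cortex (6.98%) and for 1 gene in the right (2.33%), and no gene was apart in both.

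**Figure D2:**
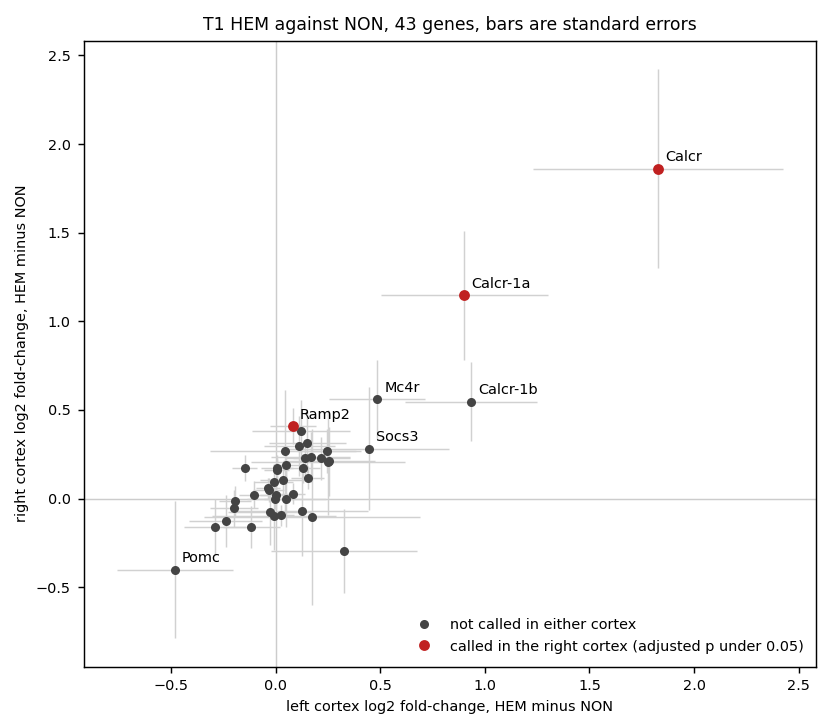
Log2 fold-change of HEM minus NON for each of the 43 genes, with the left cortex on the horizontal and the right cortex on the vertical axis and standard errors as bars. Calcr lies at 1.83 and 1.86, and most genes lie close to 0 in both. The cortices share mice, so the axes are not independent.

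Calcr encodes the calcitonin receptor, the core of the amylin receptor. RefSeq (GRCm38.p6) lists 2 transcription starts for it on the minus strand of chromosome 6. The 250 bases before each start are shown because Calcr had the highest log2 fold-change of the 43 genes in both cortices. Both are written 5′ to 3′, and capitals would mark a match to a motif of a transcription factor on the panel.
Window before a Calcr start, chr6:3763624-3763873: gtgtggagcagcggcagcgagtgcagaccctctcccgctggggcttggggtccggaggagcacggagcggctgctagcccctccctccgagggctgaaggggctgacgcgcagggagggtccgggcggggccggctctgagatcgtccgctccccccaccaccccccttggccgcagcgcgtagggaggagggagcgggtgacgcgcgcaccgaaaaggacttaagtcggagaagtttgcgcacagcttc
Window before the other Calcr start, chr6:3764714-3764963: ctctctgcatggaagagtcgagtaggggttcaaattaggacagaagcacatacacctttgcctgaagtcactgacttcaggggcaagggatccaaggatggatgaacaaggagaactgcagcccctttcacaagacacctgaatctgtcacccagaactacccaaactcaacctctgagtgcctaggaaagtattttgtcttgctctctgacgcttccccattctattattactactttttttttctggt
The first window is 70.8% G and C, and the second 46.0%. Both strands were searched for TGANTCA (AP-1, which c-Fos forms), TTCNNNGAA (the motif of STAT factors) and TGTTTAC (that of FOXO factors), of which the first 2 read alike on both strands. Neither window held any of the 3. Of the 32851 promoter windows of 250 bases in the RefSeq table, 6.75% held TGANTCA, 7.02% held TTCNNNGAA and 3.17% held TGTTTAC. The counts do not tell from which start the Calcr mRNA came.

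Normalised counts of Calcr in the left cortex were 53.3 in pool 1/2, 21.4 in 3/4, 345 in 5/6 and 15.5 in 9/10 among HEM pools. The NON pools had 19.7 in pool 1/3, 14.0 in 2/7, 34.1 in 4/5, 65.994 in 6 and 20.1 in 8/9. HEM pool 5/6 stood far above all others, NON pool 6 was the next highest, and the remaining pools of both genotypes overlapped. The means were 109 ± 159 in HEM (SD, n = 4) and 30.8 ± 21.0 in NON (SD, n = 5). The log2 fold-change of 1.83 (standard error 0.60, edgeR adjusted p = 0.11) did not pass. Counts were low. HEM pool 9/10 and NON pools 2/7 and 8/9 were at or under background. Without HEM pool 5/6 the log2 fold-change was -0.02 (adjusted p = 0.999). The value passed when HEM pool 3/4, HEM pool 9/10 or NON pool 6 was left out (adjusted p = 0.0186, 0.0144 and 0.0214 in that order).

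Calcr in the right cortex was at 22.4 in pool 1/2, 119 in 3/4, 253 in 5/6, 15.0 in 8 and 26.5 in 9/10 in HEM. In NON, the pools had 23.1 in pool 1/3, 21.6 in 2/7, 26.2 in 4/5, 23.7 in 6 and 26.0 in 8/9. Pools 3/4 and 5/6 were high, and the other 3 HEM pools were close to the NON pools, which differed little from each other. The means were 87.3 ± 102 in HEM and 24.1 ± 1.98 in NON (SD, n = 5 each), a log2 fold-change of 1.86 (standard error 0.56, edgeR adjusted p = 0.0393). HEM pools 1/2 and 8 and NON pools 1/3 and 2/7 were at or under background. NON pools 4/5, 6 and 8/9 were only slightly above it. The small spread of the NON pools is thus that of counts near background, and no bound on the fold is given. After subtracting the negative control mean the log2 fold-change was 2.85 (adjusted p = 0.0574). Without pools 3/4 and 5/6 it was -0.17 (adjusted p = 0.94), an alternative chosen after seeing the data. Leaving out HEM pool 3/4 or 5/6 or any NON pool alone also ended the call, and the log2 fold-change then ran from 0.94 without HEM pool 5/6 (adjusted p = 0.25) to 1.89 without NON pool 8/9 (adjusted p = 0.0507). Calcr and Calcr-1a also did not pass with TMM (log2 fold-changes 1.77 and 1.06, adjusted p = 0.0506 and 0.0656). Nor did they pass in a fit of only the HEM and NON pools of T1 (1.86 and 1.15, adjusted p = 0.17 and 0.17). With adjustment over both cortices, which leaves the log2 fold-changes as they were, the adjusted p was 0.0785 and 0.0849. Pool 5/6 was thus the highest of all HEM and NON pools in both cortices of the same mice, while pool 3/4 was high in the right cortex only.

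Calcr-1a and Calcr-1b are isoforms of the receptor with probes of their own. Right cortex Calcr-1a had 14.4 in pool 1/2, 15.9 in 3/4, 33.1 in 5/6, 11.1 in 8 and 8.62 in 9/10 in HEM, against 11.1 in pool 1/3, 9.95 in 2/7, 6.54 in 4/5, 2.30 in 6 and 7.56 in 8/9 in NON. Only HEM pool 5/6 was above background, and the groups overlapped through HEM pools 8 and 9/10. The log2 fold-change was 1.15 (standard error 0.36, edgeR adjusted p = 0.0427), and no bound on the fold is given since most pools of both groups were at or under background. After subtracting the negative control mean, right cortex Calcr-1a was 5.24 (adjusted p = 0.10). Without HEM pool 5/6 it was 0.73 (adjusted p = 0.17), and without NON pool 6 it was 0.90 (adjusted p = 0.18). The call also ended without HEM pool 3/4 or NON pools 2/7, 4/5 or 8/9. Left cortex Calcr-1a had 16.8 in pool 1/2, 7.84 in 3/4, 28.1 in 5/6 and 7.74 in 9/10 in HEM and 7.23 in pool 1/3, 9.69 in 2/7, 1.84 in 4/5, 13.4 in 6 and 8.60 in 8/9 in NON, with a log2 fold-change of 0.90 (standard error 0.40, edgeR adjusted p = 0.25). There too only HEM pool 5/6 was above background, and without it the value was 0.41 (adjusted p = 0.62).

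Calcr-1b did not pass in either cortex. The left cortex HEM pools had 24.8 in pool 1/2, 14.3 in 3/4, 52.0 in 5/6 and 17.4 in 9/10, and the NON pools 12.5 in pool 1/3, 10.8 in 2/7, 12.0 in 4/5, 25.9 in 6 and 10.0 in 8/9. The right cortex had 24.2 in pool 1/2, 41.9 in 3/4, 44.6 in 5/6, 22.1 in 8 and 21.2 in 9/10 in HEM and 27.4 in pool 1/3, 19.9 in 2/7, 13.1 in 4/5, 16.1 in 6 and 28.5 in 8/9 in NON. HEM pool 5/6 was again the highest in both, and NON pool 6 overlapped the HEM pools in the left cortex. The log2 fold-changes were 0.93 (standard error 0.32, edgeR adjusted p = 0.11) in the left cortex and 0.55 (standard error 0.23, edgeR adjusted p = 0.10) in the right. Without HEM pool 5/6 the left cortex value was 0.40 (adjusted p = 0.52). Calcr-1b was at or under background in 2 HEM and 3 NON pools of the left cortex. In the right cortex it was so in every NON PM pool. With the negative control mean subtracted, the log2 fold-change rose to 1.60 on the left (adjusted p = 0.23). On the right it rose to 1.30 (adjusted p = 0.10). The size of the fold is therefore uncertain, and no bound is given for it.

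Of the receptor activity modifying proteins, which turn the calcitonin receptor into amylin receptors, Ramp2 passed in the right cortex. Its normalised counts there were 2647 in pool 1/2, 2590.3 in 3/4, 2411 in 5/6, 3187 in 8 and 3062 in 9/10 in HEM. The NON pools had 2169 in pool 1/3, 2076 in 2/7, 1525 in 4/5, 2194 in 6 and 2499 in 8/9. NON pool 4/5 was far below the rest, both HEM PM pools were above all others, and only NON pool 8/9 reached into the HEM range, above HEM pool 5/6. The means were 2779 ± 329.9 in HEM and 2093 ± 355 in NON (SD, n = 5 each), a log2 fold-change of 0.41 (standard error 0.10, edgeR adjusted p = 0.0114) with a 95% interval of 0.21 to 0.61. Unlike Calcr, all pools were far above background. Ramp2 passed in 22 of 28 alternatives, with log2 fold-changes of 0.27 to 0.67 over all of them (adjusted p 0.00169 to 0.80). Among those where it did not pass were the positive control probes and the HEM pools without a collection time (0.29, adjusted p = 0.0624). Without NON pool 4/5, which was also the pool with the highest ratio of reference to target genes, it was 0.31 (adjusted p = 0.0765). In a fit of only the HEM and NON pools of T1, which have fewer pools to estimate the spread, the adjusted p was 0.17.

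In the left cortex Ramp2 had 1916 in pool 1/2, 1803 in 3/4, 1575 in 5/6 and 2547 in 9/10 in HEM and 2102 in pool 1/3, 1744 in 2/7, 1908 in 4/5, 1723 in 6 and 1791 in 8/9 in NON. HEM pool 9/10 was the highest and pool 5/6 the lowest of the 9 pools, and the log2 fold-change was 0.08 (standard error 0.11, edgeR adjusted p = 0.79). Ramp1 had 7284 in pool 1/2, 6599.7 in 3/4, 6687 in 5/6 and 7550.2 in 9/10 in the left cortex of HEM and 7119 in pool 1/3, 8575 in 2/7, 7577 in 4/5, 9216 in 6 and 7790.4 in 8/9 in NON. The 2 lowest HEM pools lay under every NON pool and the others overlapped, a log2 fold-change of -0.20 (standard error 0.076, edgeR adjusted p = 0.18). It became lower in HEM past the threshold with TMM (-0.27, adjusted p = 0.00177), and turned to 0.053 with the positive control probes. Right cortex Ramp1 was 9491 in pool 1/2, 8932 in 3/4, 8065 in 5/6, 8606 in 8 and 8789 in 9/10 in HEM and 9251 in pool 1/3, 8715 in 2/7, 9690.2 in 4/5, 8545 in 6 and 8162 in 8/9 in NON, which overlapped (log2 fold-change -0.016, adjusted p = 0.90). Ramp3 log2 fold-changes were -0.12 (left) and -0.16 (right), with adjusted p = 0.77 and 0.38. Amylin itself (Iapp), whose mouse gene the probe was designed for, was at or under background in all 9 left cortex pools except HEM pool 3/4, and in 8 of 10 right cortex pools. Left cortex Iapp was 18.2 in pool 1/2, 18.5 in 3/4, 5.47 in 5/6 and 11.6 in 9/10 in HEM and 11.2 in pool 1/3, 15.1 in 2/7, 7.37 in 4/5, 9.43 in 6 and 18.6 in 8/9 in NON. Right cortex Iapp was 19.7 in pool 1/2, 18.1 in 3/4, 19.4 in 5/6, 19.7 in 8 and 19.2 in 9/10 in HEM and 20.5 in pool 1/3, 20.7 in 2/7, 21.8 in 4/5, 23.7 in 6 and 14.3 in 8/9 in NON, and the genotypes overlapped in both. Over the 7 amylin and receptor probes, 3 passed in the right cortex, all higher in HEM, and 0 in the left, beside 6.98% and 0% of all genes, with median log2 fold-changes of 0.41 and 0.12 beside 0.12 and 0.050 over all genes. The 3 Calcr probes read the same gene, and are not separate evidence.

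**Figure D3:**
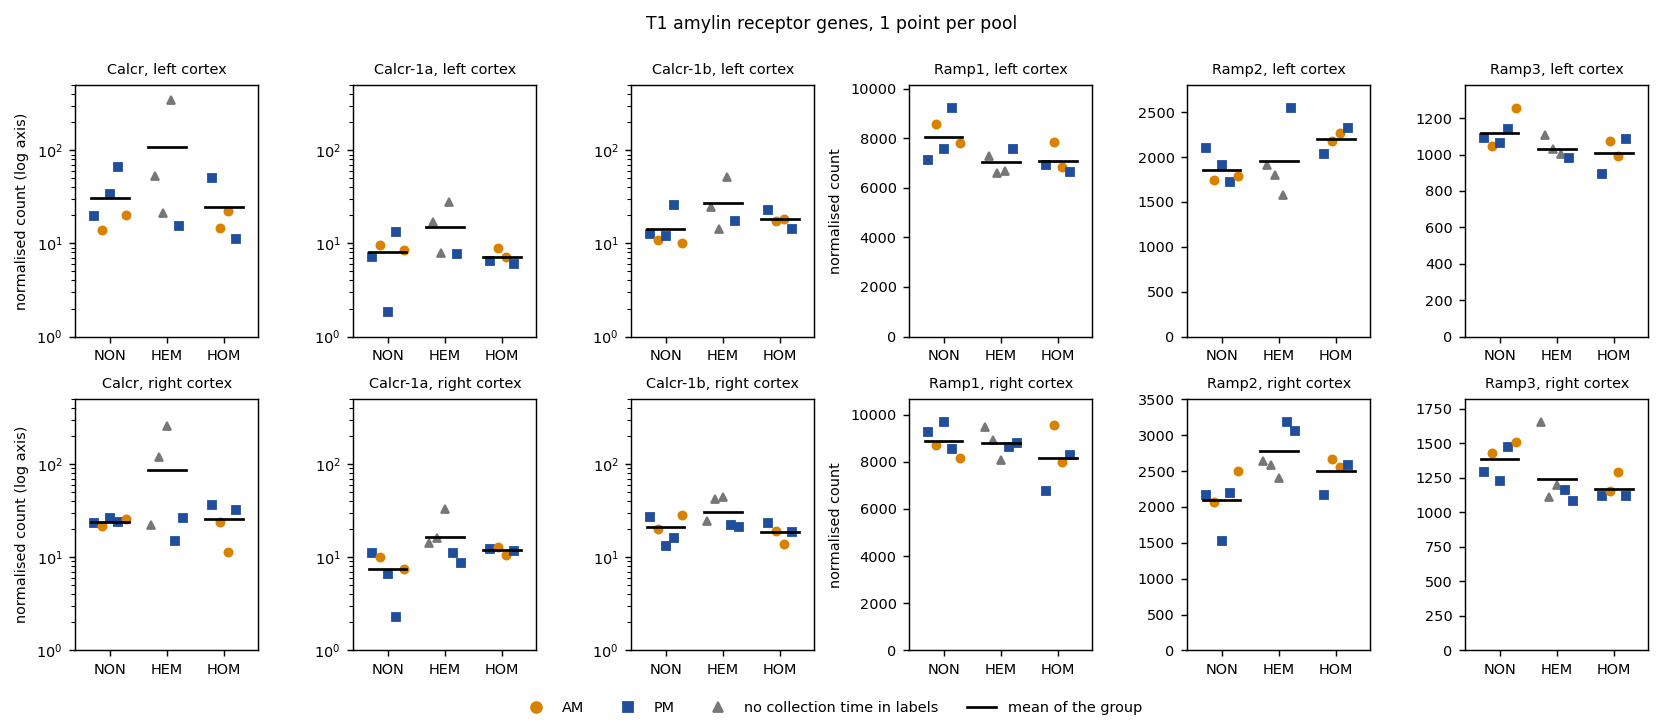
Normalised counts of the amylin receptor genes in each T1 pool of the left (top) and right (bottom) cortex by genotype, with 1 point per pool, the collection time as shape and colour, and the mean of each group as a line; the Calcr panels have log axes. A single HEM pool has 345 (left) and 253 (right) Calcr counts, while Ramp2 in the right cortex is 2411 to 3187 in HEM against 1525 to 2499 in NON.

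Other genes were high in the pools with high Calcr. Mc4r, Foxo1 and Mch were chosen for this after their values were seen, and are described without a test. Mc4r, the melanocortin receptor through which alpha-MSH lowers food intake, had 1021 normalised counts in left cortex HEM pool 5/6, against 406 to 566 in the NON pools. It was also above all NON pools in left cortex pools 1/2 (675) and 3/4 (735), and Calcr in pool 3/4 was 21.4, below the NON mean. Right cortex Mc4r had 940.3 in pool 3/4 and 957 in pool 5/6, against 399 to 625 in NON, but also 888 in pool 9/10, where Calcr was 26.5. Foxo1, a transcription factor that insulin signalling switches off, had 5311 and 5318 in right cortex HEM pools 3/4 and 5/6, above all NON pools (3059 to 3932). In the left cortex it was highest in NON pool 6, at 5471, the NON pool with the most Calcr, and HEM pool 5/6 had 5052. Mch had 164 in left and 171 in right cortex pool 5/6, against NON ranges of 70.0 to 126 and 98.1 to 128. Among the other hypothalamic markers, pool 5/6 had 15.7 Hcrt in the left cortex, where NON pools had 11.1 to 34.4, and 43.2 in the right, where NON pools had 31.6 to 43.7. Pomc in pool 5/6 was 31.5 in the left cortex, below all NON pools (42.0 to 63.8), and 66.2 in the right, within their range (44.7 to 113). Agrp was 23.3 in left cortex pool 5/6, also below all NON pools (24.4 to 30.4), and Hdc was 44.5, within their range (40.5 to 60.5). In right cortex pool 5/6 Agrp was 40.3, above all NON pools (28.2 to 34.4), and Hdc was 59.0, where NON pools had 65.8 to 70.5. Summed over the 5 hypothalamic markers, pool 5/6 had 279.1 in the left cortex, within the NON range, and 379.4 in the right, above all NON pools. The part of hypothalamic tissue in these values was not tested.

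**Figure D4:**
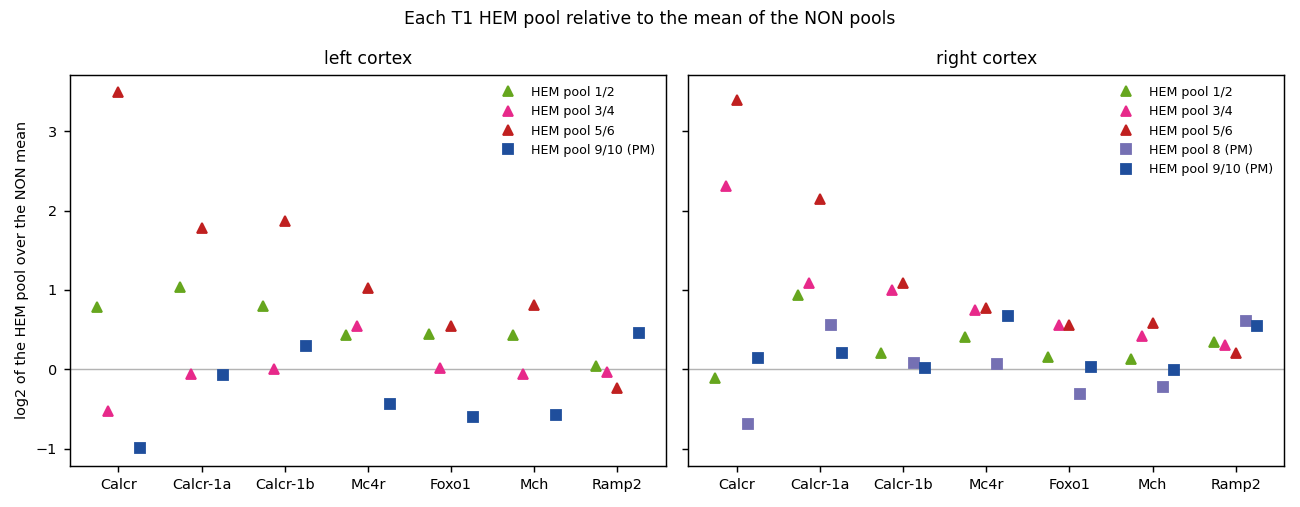
Log2 ratio of each HEM pool to the mean of the NON pools for Calcr, its isoforms, Mc4r, Foxo1, Mch and Ramp2 in the left and right cortex; triangles are pools without a collection time and squares PM pools. Pool 5/6 is 3.49 above the NON mean for left cortex Calcr and 3.39 above it for right cortex Calcr, and lowest of the HEM pools for Ramp2 in both.

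The kinase Adrbk1 and the beta-arrestins Arrb1 and Arrb2 switch off receptors of the calcitonin receptor kind once they have signalled. None of the 3 passed in either cortex (0 of 3, beside 6.98% of all genes in the right). Their log2 fold-changes in the left cortex were between -0.11 and 0.0046. Right cortex values were 0.17 for Adrbk1, 0.16 for Arrb1 and 0.023 for Arrb2 (adjusted p = 0.12, 0.10 and 0.88), with a median of 0.16 that became 0.058 with TMM. The immediate early gene c-Fos, a mark of recent neuronal activity, had 8311 in pool 1/2, 6899 in 3/4, 8877 in 5/6 and 5413 in 9/10 normalised counts in left cortex HEM pools. NON pools had 6210.1 in pool 1/3, 6830.3 in 2/7, 3741 in 4/5, 6222 in 6 and 9749.6 in 8/9. Right cortex c-Fos was 9900.2 in pool 1/2, 9552 in 3/4, 10329 in 5/6, 4646 in 8 and 6152 in 9/10 in HEM and 8727 in pool 1/3, 8930.1 in 2/7, 5719 in 4/5, 8803 in 6 and 11431 in 8/9 in NON. In both cortices the HEM PM pools were lower than every HEM pool without a collection time, and the genotypes overlapped. The log2 fold-changes were 0.17 (standard error 0.52, edgeR adjusted p = 0.97) in the left and -0.10 (standard error 0.50, edgeR adjusted p = 0.90) in the right cortex.

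Insulin is made from Ins1 and Ins2 in the mouse, and neither passed. Ins1 was above background in 3 of the 9 left and 2 of the 10 right cortex pools, and Ins2 in 2 and 2. The 3 genes of insulin-producing cells, Ins1, Ins2 and Iapp, together had 19.8 to 60.6 normalised counts in left cortex HEM pools against 15.7 to 47.1 in NON, and 48.4 to 64.6 against 42.5 to 76.5 in the right cortex. The most abundant of them differed from pool to pool and none was at 0 counts. Insr, the insulin receptor, was higher in every left cortex HEM pool (3059 to 3629) than in any NON pool (2720.3 to 3046), with a log2 fold-change of 0.15 (standard error 0.077, edgeR adjusted p = 0.30). It was 3977 to 4241 against 3566 to 4011 in the right cortex (0.12, adjusted p = 0.22). It was chosen after its values were seen.

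Irs1 and Irs2 carry the signal of the insulin receptor to PI3K. Irs1 had 377 in pool 1/2, 402 in 3/4, 301 in 5/6 and 463 in 9/10 in left cortex HEM pools, and 321 in pool 1/3, 377 in 2/7, 297 in 4/5, 264 in 6 and 399 in 8/9 in NON. The right cortex had 515 in pool 1/2, 498 in 3/4, 487 in 5/6, 547 in 8 and 437 in 9/10 in HEM and 379 in pool 1/3, 483 in 2/7, 424 in 4/5, 370.4 in 6 and 466 in 8/9 in NON. The genotypes overlapped in the left cortex, whereas right cortex NON AM pools 2/7 and 8/9 reached into the HEM range and 4 HEM pools lay above all NON pools. The log2 fold-changes were 0.22 (standard error 0.14, edgeR adjusted p = 0.39) and 0.23 (standard error 0.12, edgeR adjusted p = 0.21) in the same order. Irs2 had 3144 in pool 1/2, 4409.5 in 3/4, 2774 in 5/6 and 3716 in 9/10 in the left cortex of HEM, and 2672 in pool 1/3, 4055 in 2/7, 2578 in 4/5, 2439 in 6 and 4066 in 8/9 in NON. Right cortex pools had 4505 in pool 1/2, 5870.2 in 3/4, 3397 in 5/6, 5024 in 8 and 4135 in 9/10 in HEM and 3147 in pool 1/3, 5041 in 2/7, 2602 in 4/5, 2939 in 6 and 4711 in 8/9 in NON. The NON pools fell apart by collection time, with AM above PM, and the HEM pools spread over both. The log2 fold-changes were 0.15 (standard error 0.18, edgeR adjusted p = 0.77) and 0.31 (standard error 0.17, edgeR adjusted p = 0.22). All 3 genes of the receptor and its substrates were above 0 in both cortices under the reference genes, TMM and the positive control probes, where 29 of 43 genes were above 0 with the reference genes. Against the NON AM pools, left cortex Irs1 (-0.018) and Irs2 (-0.21) and right cortex Irs2 (-0.088) were below 0. None of the 3 passed, beside 0% of all genes in the left and 6.98% in the right.

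None of the 10 genes of the PI3K-Akt cascade passed in either cortex, beside 6.98% of all genes in the right and 0% in the left. Their median log2 fold-change was -0.0085 in the left cortex (range -0.20 to 0.17) and 0.053 in the right (-0.094 to 0.24), beside 0.050 and 0.12 over all genes. The counts above 0 were 4 and 7 of 10, and became 2 and 3 with TMM and 10 and 10 with the positive control probes. Akt1, the kinase at the centre of the cascade, had 7806 in pool 1/2, 7569 in 3/4, 7422 in 5/6 and 9177 in 9/10 in left cortex HEM pools. NON pools had 8684 in pool 1/3, 9442 in 2/7, 8478 in 4/5, 8922 in 6 and 8818 in 8/9. The 3 HEM pools without a collection time lay below every NON pool and the PM pool lay within them, a log2 fold-change of -0.15 (standard error 0.06, edgeR adjusted p = 0.18). The right cortex value was 0.17 (standard error 0.072, edgeR adjusted p = 0.10), of the opposite sign, with 12352 in pool 1/2, 10706 in 3/4, 9862 in 5/6, 11612 in 8 and 10180.4 in 9/10 in HEM and 9827 in pool 1/3, 10528 in 2/7, 9113 in 4/5, 9575 in 6 and 9493 in 8/9 in NON. Left cortex Akt1 passed with TMM (log2 fold-change -0.23, adjusted p = 0.00177) and without HEM pool 9/10 (-0.22, adjusted p = 0.0144), and was 0.09 with the positive control probes.

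The growth kinase mTor, which Akt activates, had 8786 in pool 1/2, 8724 in 3/4, 8027 in 5/6, 7903 in 8 and 7281 in 9/10 in right cortex HEM pools. NON pools had 7253 in pool 1/3, 7483 in 2/7, 5615 in 4/5, 7388 in 6 and 8026 in 8/9. NON pool 4/5 was the lowest by far and the groups overlapped otherwise, a log2 fold-change of 0.19 (standard error 0.071, edgeR adjusted p = 0.10). It was 0.11 without NON pool 4/5 and 0.086 with TMM. Left cortex mTor was 6727 in pool 1/2, 6456 in 3/4, 6263 in 5/6 and 6625 in 9/10 in HEM and 5897 in pool 1/3, 6342 in 2/7, 6076 in 4/5, 6479 in 6 and 6718 in 8/9 in NON, which overlapped (log2 fold-change 0.048, adjusted p = 0.79). Pdk1, chosen after its values were seen, was lower in every left cortex HEM pool (9442 to 10966) than in any NON pool (10989 to 12111), with a log2 fold-change of -0.20 (adjusted p = 0.35). The right cortex groups overlapped (-0.055, adjusted p = 0.78). By the accession of its probe, this is RefSeq Pdk1, pyruvate dehydrogenase kinase 1, while the study describes the phosphoinositide-dependent kinase, RefSeq Pdpk1, so that its place in this cascade is in doubt.

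The leptin receptor (Lepr), its long signalling isoform (Lepr-b), the kinase Jak2 and the transcription factor Stat3 showed no call in either cortex (0 of 4, beside 0% of all genes in the left and 6.98% in the right). Their log2 fold-changes were -0.026, -0.29, 0.13 and 0.033 in the left cortex, and -0.078, -0.16, 0.17 and 0.10 in the right, 2 of 4 above 0 in each, 1 with TMM and 4 with the positive control probes. Socs3, which leptin signalling induces and which then restrains it, had 86.8 in pool 1/2, 78.4 in 3/4, 72.5 in 5/6 and 85.2 in 9/10 in left cortex HEM pools. NON pools had 42.1 in pool 1/3, 56.0 in 2/7, 53.4 in 4/5, 65.2 in 6 and 79.5 in 8/9. Only NON pool 8/9 reached into the HEM range, which was narrow. The right cortex had 120.2 in pool 1/2, 109.9 in 3/4, 91.4 in 5/6, 71.9 in 8 and 106 in 9/10 in HEM and 70.9 in pool 1/3, 90.4 in 2/7, 58.9 in 4/5, 92.6 in 6 and 96.5 in 8/9 in NON, and the groups overlapped. The log2 fold-changes were 0.44 (standard error 0.39, edgeR adjusted p = 0.59) and 0.28 (standard error 0.35, edgeR adjusted p = 0.62). In a fit of only the HEM and NON pools of T1, left cortex Socs3 did not pass either (adjusted p = 0.28).

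Ptp1b removes phosphate from the insulin receptor and Jak2. Its left cortex values were 9429 in pool 1/2, 10961 in 3/4, 8973 in 5/6 and 9025 in 9/10 in HEM and 7282 in pool 1/3, 9479.8 in 2/7, 6783 in 4/5, 7329 in 6 and 9597 in 8/9 in NON. The right cortex had 11817 in pool 1/2, 14055 in 3/4, 10714 in 5/6, 11252 in 8 and 11602 in 9/10 in HEM and 8651 in pool 1/3, 11742 in 2/7, 9141 in 4/5, 8256 in 6 and 11588 in 8/9 in NON. All HEM pools lay above the 3 NON PM pools in both cortices and overlapped the 2 NON AM pools. The log2 fold-changes were 0.25 (standard error 0.14, edgeR adjusted p = 0.35) and 0.27 (standard error 0.13, edgeR adjusted p = 0.14). Pias3, an inhibitor of Stat3, was close to 0 in both (0.0016 and 0.02). Over the 3 inhibitors 0 passed, beside 0% of all genes in the left and 6.98% in the right. All 3 were above 0 in both cortices, as were 29 of 43 genes, but 2 of 3 with TMM. With the reference genes their medians were 0.25 and 0.27.

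Among the 7 appetite genes 0 passed in either cortex, beside 0% of all genes in the left and 6.98% in the right. Their median log2 fold-changes were 0.12 in the left and 0.20 in the right, beside 0.050 and 0.12 over all genes. Npy, which drives feeding in the hypothalamus and is also made by cortical interneurons, passed in neither. It had 44003 in pool 1/2, 44328 in 3/4, 44754 in 5/6 and 43959 in 9/10 in left cortex HEM pools. The NON pools had 47870.4 in pool 1/3, 53842 in 2/7, 61210.3 in 4/5, 49640.4 in 6 and 48738 in 8/9. All 4 HEM pools were lower than every NON pool and hardly differed from each other, with a mean of 44261 ± 368 (SD, n = 4) against 52260.1 ± 5503 (SD, n = 5). The log2 fold-change was -0.24 (standard error 0.17, edgeR adjusted p = 0.46). In a fit of only the HEM and NON pools of T1 it did not pass either (adjusted p = 0.15). Right cortex Npy had 53065 in pool 1/2, 59866 in 3/4, 53845 in 5/6, 53493 in 8 and 47799 in 9/10 in HEM and 55707 in pool 1/3, 62728 in 2/7, 64188 in 4/5, 51218 in 6 and 58946 in 8/9 in NON, which overlapped, with a log2 fold-change of -0.13 (standard error 0.15, edgeR adjusted p = 0.60). With the positive control probes the values turned to 0.033 and 0.056.

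Pomc, the precursor of alpha-MSH, had 43.8 in pool 1/2, 38.5 in 3/4, 31.5 in 5/6 and 40.7 in 9/10 in left cortex HEM pools and 62.5 in pool 1/3, 42.0 in 2/7, 48.8 in 4/5, 51.1 in 6 and 63.8 in 8/9 in NON. Right cortex Pomc was 61.002 in pool 1/2, 39.8 in 3/4, 66.2 in 5/6, 68.7 in 8 and 45.8 in 9/10 in HEM and 47.9 in pool 1/3, 75.5 in 2/7, 44.7 in 4/5, 88.0 in 6 and 113 in 8/9 in NON. HEM was lower on average in both, with overlapping pools, and the log2 fold-changes were -0.48 (standard error 0.28, edgeR adjusted p = 0.35) and -0.40 (standard error 0.39, edgeR adjusted p = 0.53). Their sign held in every alternative (27 for the left and 28 for the right cortex), and none passed. Cart, a peptide that lowers food intake, had 1531 in pool 1/2, 874 in 3/4, 1801 in 5/6 and 2025 in 9/10 in the left cortex of HEM and 1087 in pool 1/3, 1162 in 2/7, 874 in 4/5, 1777 in 6 and 1644 in 8/9 in NON. Right cortex values were 1602 in pool 1/2, 1631 in 3/4, 1869.9 in 5/6, 750.3 in 8 and 1607 in 9/10 in HEM and 1251 in pool 1/3, 1259.5 in 2/7, 936 in 4/5, 1575 in 6 and 1452 in 8/9 in NON. HEM pool 8, of 1 mouse, was the lowest and pool 5/6 the highest of the right cortex pools, and the log2 fold-changes were 0.25 (standard error 0.37, edgeR adjusted p = 0.79) and 0.20 (standard error 0.30, edgeR adjusted p = 0.67).

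Agrp, an antagonist of Mc4r, was the only gene in the right cortex without overlap, at 35.5 to 49.3 in HEM against 28.2 to 34.4 in NON, and was named for it after its values were seen. Its log2 fold-change was 0.38 (standard error 0.17, edgeR adjusted p = 0.13), and NON pool 1/3 did not exceed background. Left cortex Agrp was 23.3 to 39.9 against 24.4 to 30.4 (0.12, adjusted p = 0.90). Mc4r had log2 fold-changes of 0.48 (standard error 0.23, edgeR adjusted p = 0.29) in the left and 0.56 (standard error 0.22, edgeR adjusted p = 0.10) in the right cortex. Hcrt and Mch were at -0.008 and 0.25 in the left and -0.10 and 0.21 in the right cortex. The histamine genes, Hdc which makes histamine and its receptor Hrh1, had 0.05 and 0.11 in the left and -0.0034 and 0.30 in the right cortex. The histone deacetylase Hdac5 had 0.14 and 0.23 (adjusted p = 0.46 and 0.10). None of these passed.

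The answer depended on which NON pools were the controls. Against the 3 NON PM pools, 13 of 43 genes passed in the right cortex (30.2% of those tested, 12 higher and 1 lower in HEM) and 2 in the left (4.65%). Against the 2 NON AM pools, 0 passed in either cortex (0%), with 1 gene at an unadjusted p under 0.05 in the right and 4 in the left. The median log2 fold-change over the 43 genes in the right cortex was 0.17 against NON PM, with 32 above 0, and 0.030 against NON AM, with 27 above 0. The right cortex NON PM pools had a ratio of reference to target genes of 0.074 to 0.17 (above), and the HOM PM pools had 0.11 and 0.12. The part of this ratio in these counts was not tested. All HEM pools stood on 1 side of both comparisons, so these share samples. Irs2 in the right cortex had a log2 fold-change of 0.66 against NON PM (edgeR adjusted p = 0.000496) and -0.088 against NON AM (adjusted p = 0.90). Its NON means were 2896 ± 275 in PM (SD, n = 3) and 4876 ± 234 in AM (SD, n = 2). For Ptp1b the values were 0.45 (adjusted p = 0.000496) and 0.027 (adjusted p = 0.90) in the right cortex, and 0.43 (adjusted p = 0.00904) and 0.008 (adjusted p = 0.99) in the left. Irs1 was the other gene that passed against NON PM in the left cortex (0.38, adjusted p = 0.0357), and was -0.018 against NON AM. Irs1 in the right cortex was 0.35 (adjusted p = 0.0166) and 0.065.

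Ramp2 in the right cortex had 0.49 against NON PM (adjusted p = 0.00238) and 0.27 against NON AM (adjusted p = 0.80). Also higher than in NON PM were mTor (0.27), Adrbk1 (0.27), Arrb1 (0.25), Hdac5 (0.30), Jak2 (0.23), Hrh1 (0.50), Calcr-1a and Calcr-1b, and lower was Pik3r1, the regulatory subunit of PI3K (-0.14, adjusted p = 0.0482). For Calcr-1a and Calcr-1b every NON PM pool was at or under background, so these calls rest on controls in which neither was detected. Of the 3 genes that passed against all NON pools, Calcr did not pass against either NON subset. Its log2 fold-change was 1.38 against PM (adjusted p = 0.0763) and 1.41 against AM (adjusted p = 0.80). Between pools of the same collection time, HEM PM had 2 pools in the right cortex, and 5 genes were higher in them than in NON PM (11.6% of those tested). These were Ramp2 (0.67, adjusted p = 0.00169), Irs2 (0.66, adjusted p = 0.00476), Ptp1b (0.40, adjusted p = 0.0184), Adrbk1 (0.33, adjusted p = 0.021) and Hdac5 (0.32, adjusted p = 0.0392). Calcr was -0.21 (adjusted p = 0.90). Over all 43 genes the median log2 fold-change of this comparison was 0.13, with 28 above 0. Of the HEM PM pools, pool 8 was of 1 mouse. The left cortex had a single HEM PM pool, with no replicate of its own, and no call is given for it.

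The 3 HEM pools without a collection time differed from all NON pools in 9 genes in the right cortex (20.9%, all higher) and in 6 in the left (14%, 4 higher and 2 lower). Both lists held Calcr, Calcr-1b, Mc4r and Ptp1b. Left cortex Calcr had 2.29 (adjusted p = 0.00852) and right cortex Calcr 2.46 (adjusted p = 0.00279). Among these 3 pools, Calcr was high in pool 5/6 in both cortices and in pool 3/4 in the right, while left cortex pool 3/4 (21.4) and right cortex pool 1/2 (22.4) were below the NON means. Akt1 and Ramp1 were the genes lower in the left cortex. Set directly against the HEM PM pools, those without a time had higher Calcr in the right cortex (log2 fold-change 2.65, adjusted p = 0.0496, 1 of 43 genes, 2.33%), although pool 1/2 lay between the PM pools 8 (15.0) and 9/10 (26.5). In the left cortex the group with a time was pool 9/10 alone, so that no call is given. Since collection time is unknown for these pools, genotype and collection time cannot be told apart in the comparison over all pools.

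**Figure D5:**
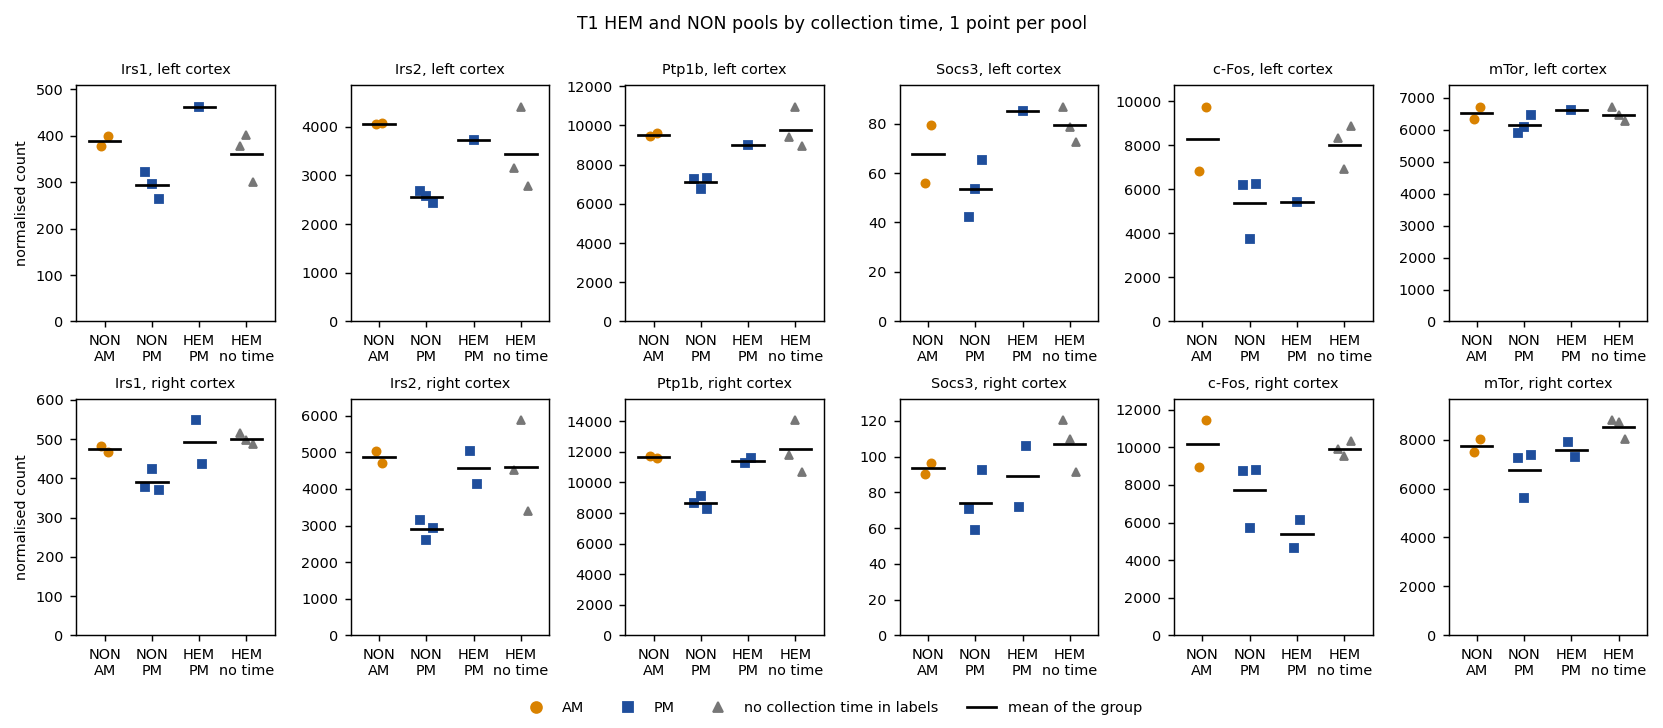
Normalised counts of Irs1, Irs2, Ptp1b, Socs3, c-Fos and mTor in each HEM and NON pool of the left (top) and right (bottom) cortex, grouped by genotype and collection time, with 1 point per pool and the mean as a line. Ptp1b in the right cortex is 8256 to 9141 in NON PM, 11588 to 11742 in NON AM and 10714 to 14055 in the HEM pools.

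HOM mice carry the transgene on both chromosomes. Fitted in the same models, 0 of 43 genes differed between the 4 HOM pools and the HEM pools in either cortex (0%), with 5 genes in the left and 4 in the right at an unadjusted p under 0.05. Calcr in the left cortex of HOM was 50.1 in pool 1/5, 14.8 in 3/4, 22.4 in 6/7 and 11.2 in 8/9, with no pool as high as HEM pool 5/6. Right cortex HOM pools had 36.5 in pool 1/5, 24.0 in 3/4, 11.5 in 6/7 and 32.1 in 8/9. The HOM minus HEM log2 fold-changes were -2.13 (adjusted p = 0.0915) and -1.75 (adjusted p = 0.12). Right cortex Ramp2 was 2172 in pool 1/5, 2673 in 3/4, 2557 in 6/7 and 2583 in 8/9 in HOM, below the HEM mean and above the NON mean on average (HOM minus HEM -0.16, adjusted p = 0.54). Against the same NON pools, which both genotypes share, HOM had log2 fold-changes of -0.30 and 0.12 for Calcr and 0.25 and 0.25 for Ramp2 in the left and right cortex. Calcr passed as lower in HOM in the left cortex when HEM pool 3/4, HEM pool 9/10 or HOM pool 1/5 was left out, and with Calcr-1b in the right cortex when HEM pool 8 or 9/10 was left out. No gene passed for HOM against NON (0% in either cortex, where 6 and 5 genes had an unadjusted p under 0.05).

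Whether the HEM effect differed between the cortices was tested as a difference of effects in 1 fit of both. This fit had no term for the mice that the cortices share. No gene passed (0 of 43, 0%), and 1 had an unadjusted p under 0.05. With the pool of mice as a block, 0 passed as well, and 2 had an unadjusted p under 0.05. The values that follow are from the fit without the block. Ramp2, which passed in the right cortex and not in the left, had a difference of 0.33 (standard error 0.17, adjusted p = 0.98). Calcr had 0.034 (standard error 1.05) and Calcr-1a 0.24 (standard error 0.62). Akt1, with effects of opposite sign, had 0.32 (standard error 0.10, adjusted p = 0.11), and passed without HEM pool 9/10. So no right cortex call was shown to differ from the left cortex.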

How the data were processed

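RNA of left and right cerebral cortex was pooled from 1 or 2 mice and counted on the nCounter platform. The authors deposited raw counts, neither normalised nor corrected for background, of 43 target genes and 3 reference genes, with those of the 6 positive and 8 negative control probes. Software used on the instrument is not given in the sources used here. Pools were grouped by their labels. The members, gene lists, naming rule and tests were chosen with earlier results of these data known. Names of the 43 target genes were matched by probe accession to RefSeq (GRCm38.p6), and all 43 matched.

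For each cortex, all pools of the 3 time points were fitted with edgeR 4.0.16 (R 4.3.3) together, giving every genotype at every time point its own mean, whatever the collection time. The library size was the geometric mean of the reference genes. Contrasts used the quasi-likelihood test (prior count 0.125), p-values were adjusted by Benjamini-Hochberg over the 43 genes, and a gene passed at an adjusted p under 0.05. The limits of the study on the absolute log2 fold-change, 1 and 0.58, were applied beside it. Since the spread was estimated over all pools of the cortex, the p-values assume that T1 pools vary like those of other ages. The difference between the cortices was fitted on the T1 pools, with the pool as a block as an alternative. Pools of the same number share mice, and their deviations from the group mean over genes correlated between the cortices at -0.544 to 0.815 in HEM, -0.052 to 0.621 in NON and 0.249 to 0.783 in HOM pools.

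The naming rule gave values in every pool for 16 genes, taken as those that passed, the 4 lowest p-values of each cortex and a list of 10 genes of the study, and any other gene singled out was chosen after its values were seen. Of 48 pairs of pools within groups, 0 had identical counts, and chi-square over its degrees of freedom was at least 19.31. On simulated data the test recovered 66% of changes of 0.58 and 87% of changes of 1 in the left cortex and 64% and 90% in the right, and called 12 and 6 of 875 unchanged genes. Apart from the set changes, the simulated pools of all ages shared a mean per gene and the dispersion fitted to these data. They had no outlying pool, effect of collection time or error of scaling. The rates are averages over randomly chosen genes, so they do not give the rate for a single gene such as Calcr. Alternatives changed the scaling, the test (DESeq2 1.42.0), the background, the pools in the fit, the collection times and the adjustment, or left out each pool in turn. Figures were drawn with matplotlib 3.10.9 (Python 3.11.15, pandas 2.3.3, NumPy 2.4.6). NanoStringDiff, which the study used, was not run here. Results on 2 of the reference genes, among them the alternatives that leave these genes out, are not reported here.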

Additional observations from a re-analysis of the deposited data

Results flagged for a closer look

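In 68 groups of 4 or 5 pools, a pool far from the rest of its group was looked for for the 16 genes of the naming rule and the reference gene level, by Dixon's test, which flags about 1 in 20 groups by chance, and 3 were found. Calcr in the left cortex of HEM was 345.5 normalised counts in pool 5/6, against 15.5 to 53.3 in the other 3 pools. Calcr-1b in the left cortex of NON was 25.9 in pool 6, a pool of 1 mouse, against 10.0 to 12.5 in the other 4 pools. Cart in the right cortex of HEM was 750.3 in pool 8, also of 1 mouse, against 1602 to 1869.9 in the other 4 pools. No replicate check within these pools is possible, and the cause was not tested.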

How the results depend on the processing

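Counts of genes that passed in the left cortex, 0 in the report, were 2 with TMM, 1 with the positive control probes, 2 without B2m as reference gene, 3 with DESeq2 and its own size factors, 6 for the HEM pools without a collection time, 2 against NON PM, 2 with pools of 2 mice only, and 0 to 4 when each pool was left out. With PM pools only, HEM is a single pool in the left cortex, and no count is given. The right cortex count, 3 in the report, was 1 with TMM, 1 with the negative control mean subtracted, 0 with only HEM and NON pools of T1, 0 with only the T1 pools, 5 with PM pools only, 9 for the HEM pools without a collection time, 0 against NON AM, 13 against NON PM, 1 without HEM pools 3/4 and 5/6, 1 without HEM pool 5/6 and NON pool 6 (both chosen after seeing the data), 1 with adjustment over both cortices, and 0 to 4 when each pool was left out. Fits of fewer pools have fewer degrees of freedom and also estimate the spread from other pools. The cause of these changes in count was not tested. The left HOM against HEM count was 0 to 1, the right 0 to 2, and the count of effects that differed between the cortices 0 to 1 when each pool was left out, and with the pool of mice as a replicate block the latter stayed at 0. The reference gene difference ran from -0.0037 to 0.21 in the left and from 0.12 to 0.27 in the right cortex (exact p = 0.0238 without HEM pool 1/2).

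Of the log2 fold-changes of named genes under an alternative, 762 kept direction and side of the threshold, 38 turned in sign, 38 no longer passed and 37 now passed. These totals include the left cortex fit with PM pools only, where HEM is a single pool and a side of the threshold has no meaning. Turned in the left cortex were, with the positive control probes, Akt1 (0.0902), Npy (0.0328) and Ramp1 (0.0531). With TMM these were Ramp2 (-0.010) and mTor (-0.0313), and without B2m mTor (-0.0243). With PM pools only they were Akt1 (0.078) and Calcr (-1.35), for the HEM pools without a collection time Ramp2 (-0.0701), and against NON AM Iapp (-0.346), Irs1 (-0.0178), Irs2 (-0.211), c-Fos (-0.189) and mTor (-0.0029). Right cortex values turned with the positive control probes for Iapp (0.12), Npy (0.0559), Ramp1 (0.17) and c-Fos (0.116). They also turned with PM pools only for Calcr (-0.207) and Cart (-0.0896), for the HEM pools without a collection time for c-Fos (0.20), against NON AM for Iapp (0.134), Irs2 (-0.0884) and Ramp1 (0.0566), against NON PM for c-Fos (0.0056), and with pools of 2 mice only for c-Fos (0.0457). Without HEM pools 3/4 and 5/6 Calcr (-0.166) and Ramp1 (0.0145) turned, and Ramp1 was 0.0 without HEM pool 5/6 and NON pool 6. With each pool left out, left cortex Calcr ran from -0.0196 to 2.32, Iapp from -0.0778 to 0.398 and Ramp2 from -0.0711 to 0.17, and right cortex Ramp1 from -0.0453 to 0.0179 and c-Fos from -0.223 to 0.0424.

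With 4 to 5 pools per group, the depth of Calcr, its isoforms and Iapp, near background, limits what can be told of them.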
